A study of Homo sapiens with 64 samples.

Results

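The genes described are the 9 members of the necroptosis and death receptor pathway that were looked up by symbol among 54127 Ensembl genes in 64 RNA sequencing libraries of human colorectal cancer cells: MLKL, RIPK1, RIPK3, CASP8, FADD, CFLAR, TRADD, TNFRSF1A and TNFRSF10A. All 9 were found, at 1 Ensembl identifier each. The members were chosen with earlier results of the same libraries in view, in which dormant and cycling cells were compared, so their values in that comparison are a description and carry no test.

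Death receptors of the TNF receptor family sit at the cell surface and recruit adaptor proteins through death domains. Depending on which proteins join the complex, the cell can activate NF-kB and survive, activate caspase-8 and die by apoptosis, or, where caspase-8 is held inactive, assemble RIPK1 and RIPK3 into the necrosome, which phosphorylates the pseudokinase MLKL so that it permeabilizes the plasma membrane. The last route is necroptosis, and many cancer cell lines are known to lack RIPK3 transcript.

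The sorted cells came from 6 lines established from human colorectal cancers, HT55, SW948, RKO, SW48, DLD1 and HCT15, of which the study assigned HT55 and SW948 to colon cancer subtype CCS1, RKO and SW48 to CCS2 and DLD1 and HCT15 to CCS3. Cells were stained with CFSE, a dye that covalently labels intracellular protein and is diluted at each division, were grown as non-adherent spheroids in the presence of bFGF and EGF for 6 days, and were then sorted by flow cytometry. Cells that had kept the dye were called label-retaining cells (LRCs, taken as dormant) and the remainder non-LRCs (labeled BULK, taken as cycling), with 4 libraries of each population per line and 48 in all. A further 16 libraries were controls labeled DLD1, from cultures that had received CFSE or, in its place, DMSO (called unlabeled here) and were collected at d1 or d5, with 4 libraries per group. The sample labels give these controls no population and the later day as 5, whereas the design text calls them BULK and gives the day as 6. The study's methods describe its experiments as biological quadruplicates, whereas the labels only number the 4 libraries of a group and do not name their cultures.

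The members lie on 7 chromosomes in GRCh37, the build named by the submitters' notes as hg19, and all are protein-coding. MLKL (ENSG00000168404) spans chr16:74705753-74734858 on the minus strand, and TRADD (ENSG00000102871) lies on the same strand at chr16:67188088-67193812. CASP8 (ENSG00000064012) at chr2:202098166-202226559 and CFLAR (ENSG00000003402) at chr2:201980877-202041410 lie close to each other on the plus strand. RIPK1 (ENSG00000137275) is at chr6:3064058-3115421 on the plus strand, RIPK3 (ENSG00000129465) at chr14:24805231-24809228 on the minus strand and FADD (ENSG00000168040) at chr11:70049402-70053496 on the plus strand. The receptor genes are TNFRSF1A (ENSG00000067182) at chr12:6437923-6451280 and TNFRSF10A (ENSG00000104689) at chr8:23047965-23082615, both on the minus strand.

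Libraries held between 12237225 and 20913455 reads assigned to genes. Mitochondrial genes took 5.31 to 14.2% of those reads in LRCs, 4.44 to 11.3% in non-LRCs and 2.60 to 6.53% in the controls. All 11 colorectal epithelial markers reached 1 CPM (read counts scaled to the total of each library) in HT55 and SW948, whereas RKO reached that level for 6 of the 11 in LRCs and 4 in non-LRCs, with summed levels of 220 to 335 CPM against 2714 to 21062 CPM in the other sorted lines. Of 11 markers of immune, stromal and endothelial cells, LYZ reached 1334 CPM in SW948 LRCs, 1371 CPM in SW948 non-LRCs and 63.2 and 64.6 CPM in the HT55 populations, PTPRC reached 14.3 and 15.6 CPM in those of SW48, and the others stayed under 10 CPM in every group. The controls went against their line label. Over 10049 genes, all 16 control libraries correlated better with the mean of the sorted HCT15 libraries (r from 0.873 to 0.982) than with that of the sorted DLD1 libraries (r from 0.802 to 0.921). Of 365 genes whose 8 sorted DLD1 and 8 sorted HCT15 libraries did not overlap and differed by more than 4 times, 82.7 to 99.2% were nearer the HCT15 level in a control library. CD14, for example, stood at 5.69 to 7.94 CPM in the control groups, 6.36 and 7.32 CPM in HCT15 and 0.628 and 0.302 CPM in DLD1, and KRT20 was at most 2.11 CPM in a control group, 3.45 and 3.04 CPM in HCT15 and 32.1 and 35.04 CPM in DLD1. Which labels hold the named line was not tested, and the controls are called controls labeled DLD1. A control library also stood apart from its group: across 9944 genes, the library labeled DMSO d1 replicate 4 had a mean correlation of 0.931 with the other DMSO d1 libraries and of 0.978 with the DMSO d5 libraries. The 4 CFSE d1 libraries also split into a pair (replicates 1 and 2, r = 0.993) and another (replicates 3 and 4, r = 0.996), with correlations of about 0.947 across the pairs. The CFSE d5 libraries split likewise (replicates 1 and 2, r = 0.995, replicates 3 and 4, r = 0.994), with a lowest correlation across the pairs of 0.970. The library labeled DMSO d5 replicate 2 had a mean correlation of 0.976 with the CFSE d5 libraries and of 0.975 with its own group. Of the 16 control libraries, 14 were nearest their own group. Control results are given with and without DMSO d1 replicate 4 and CFSE d1 replicates 1 and 2, and no d5 library was left out on this ground.

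Promoter sequences from RefSeq (GRCh38.p14) were matched for 6 of the 9 members, in 13 windows of the 250 bases before an annotated start. Those of 2 genes are shown: MLKL, which was lower in LRCs in every pair of libraries, and the RIPK1 start with an interferon-stimulated response element core. Capitals mark that core, which is GAAA, any 2 bases and GAAA again, here read on the opposite strand, and it begins 67 bases before the start.
MLKL, chr16:74700863-74701112, minus strand: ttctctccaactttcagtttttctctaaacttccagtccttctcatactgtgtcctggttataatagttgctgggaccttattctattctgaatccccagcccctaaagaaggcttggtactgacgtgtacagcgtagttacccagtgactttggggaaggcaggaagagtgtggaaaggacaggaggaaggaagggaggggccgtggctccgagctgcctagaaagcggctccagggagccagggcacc
RIPK1, chr6:3068128-3068377, plus strand: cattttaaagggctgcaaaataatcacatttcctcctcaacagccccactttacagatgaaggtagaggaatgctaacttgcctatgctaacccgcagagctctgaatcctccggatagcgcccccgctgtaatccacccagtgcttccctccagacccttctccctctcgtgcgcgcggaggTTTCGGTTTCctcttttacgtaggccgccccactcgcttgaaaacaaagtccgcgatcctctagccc
The core was found, on either strand, in 2 of the 13 windows, which are overlapping windows of RIPK1, and in 3.02% of all 35116 RefSeq promoters. A gamma-activated sequence core (TTCNNNGAA) was in 1 window, of CASP8, and in 6.57% of all promoters. For NF-kB only 1 fixed form of the site, without variable bases, was searched. That form was in 0 windows and 0.179% of all promoters. The other 10 windows, that of MLKL included, held none of the 3 motifs, in the forms searched, on either strand. Other forms of the NF-kB site were not searched, so their absence from the windows cannot be read from these counts.

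MLKL, the executor of necroptosis, was lower in LRCs than in same-numbered non-LRCs in all 24 pairs of libraries, a pattern shown by 0.151% of the 16603 genes tested. MLKL had been singled out from earlier results because it moved the same way in every line, so that share is a description and carries no test. In RKO and SW948 the numbers did not pair the populations, so the pairs there are arbitrary. The fitted difference of MLKL over the 6 lines was -0.35 ± 0.06 (log2 fold change ± SE, 24 LRC and 24 non-LRC libraries). In RKO the 4 LRC libraries held 12.6, 17.4, 17.6 and 16.8 CPM of MLKL and the 4 non-LRC libraries 23.2, 25.2, 27.4 and 26.2 CPM. There the populations did not overlap, as for 17.7% of genes in that direction, and the difference was -0.68 ± 0.11. HT55 held 12.3, 11.8, 10.95 and 14.7 CPM in LRCs and 19.0, 13.0, 17.3 and 18.4 CPM in non-LRCs (-0.44 ± 0.14). SW948 held 8.79, 12.9, 11.1 and 15.6 CPM in LRCs and 12.4, 16.4, 16.9 and 16.2 CPM in non-LRCs (-0.34 ± 0.16). In both CCS1 lines the lowest non-LRC library fell within the LRC range. The differences were smaller in the remaining lines. SW48 held 21.0, 26.4, 16.4 and 21.9 CPM in LRCs and 24.8, 28.4, 20.7 and 24.2 CPM in non-LRCs (-0.20 ± 0.15), DLD1 13.1, 12.4, 17.1 and 13.2 CPM against 13.98, 14.3, 18.04 and 18.8 CPM (-0.21 ± 0.13), and HCT15 13.1, 11.8, 10.9 and 10.4 CPM against 14.1, 13.6, 13.7 and 13.1 CPM (-0.23 ± 0.11). These ranges overlapped, with each LRC library below its same-numbered non-LRC library. In such sorted pools, fewer cells carrying a transcript and less transcript per cell cannot be told apart.

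**Figure D1:**
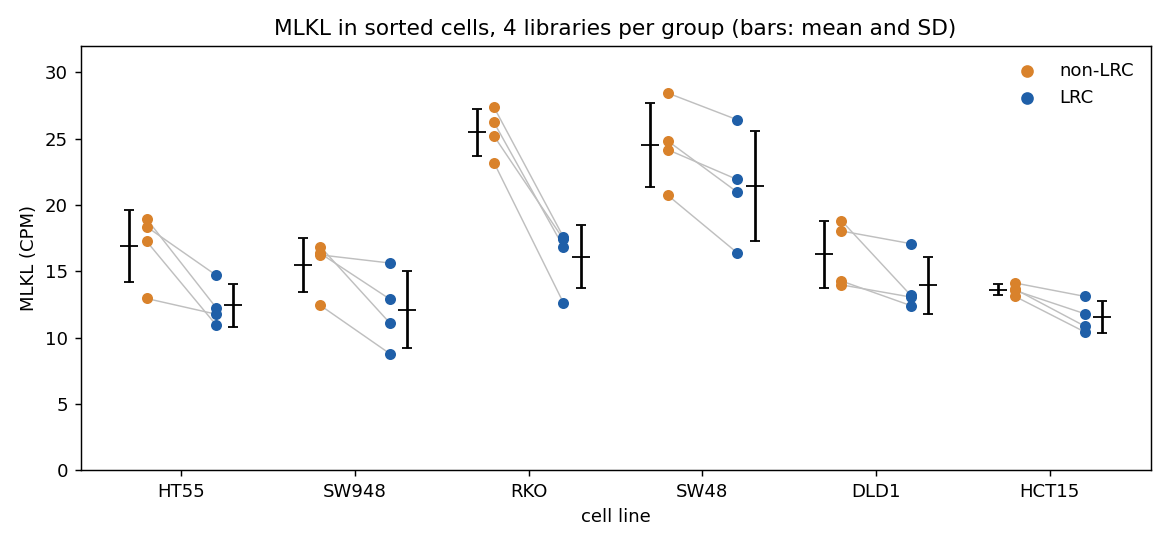
MLKL level (CPM, y axis) in the 4 non-LRC (orange) and 4 LRC (blue) libraries of each line (x axis), with mean and SD beside the points and gray lines joining same-numbered libraries (the numbers pair libraries in 4 of the 6 lines). Every gray line falls from non-LRC to LRC, and only in RKO do the populations not overlap.

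Markers of cycling cells moved with the sort in some lines. Of 10 markers of cycling cells, such as TOP2A and MKI67, 8 were lower in RKO LRCs and 8 in DLD1 LRCs by edgeR's quasi-likelihood test, and in the other 4 lines none passed, with all 10 fold changes negative in SW48, 6 of them in SW948, 3 of them in HT55 and 1 in HCT15. Over the 6 lines 5 of the 10 were lower, beside 10.7% of all genes, and all 10 fold changes were negative. The share of mitochondrial reads also separated the populations in the CCS2 lines, at 7.01 to 10.5% in RKO LRCs against 4.47 to 6.57% in non-LRCs and 13.8 to 14.2% in SW48 LRCs against 9.66 to 11.3%, and overlapped in the other 4 lines. The part of these markers and of that share in the differences of the members was not tested.

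Over the 6 lines, 3 of the 9 members were past an adjusted p of 0.05, beside 22.9% of all genes tested, and because the members were chosen on this contrast nothing is read from that count. MLKL and FADD were lower in LRCs (10.7% of genes were called lower) and CFLAR higher (12.2% were called higher). The median difference of the members was 0.03 on the log2 scale, beside 0.01 for all genes.

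FADD, the adaptor that couples death receptors to caspase-8, was lower in LRCs in 21 of 24 pairs (-0.15 ± 0.04 over the 6 lines). In RKO its LRC libraries held 26.7, 28.2, 28.6 and 29.3 CPM and its non-LRC libraries 33.7, 36.0, 41.3 and 37.7 CPM. The RKO ranges did not overlap (-0.42 ± 0.08), as for 17.7% of genes in that direction. In the other lines the FADD ranges overlapped, with differences from -0.03 to -0.12, where 1.49 to 12.1% of genes did not overlap in that direction.

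CFLAR encodes FLIP, the caspase-8 homolog that lacks protease activity and restrains caspase-8 at the receptor. It was higher in LRCs in 21 of 24 pairs (0.17 ± 0.04 over the 6 lines). RKO LRCs held 36.1, 39.2, 32.9 and 39.8 CPM of CFLAR against 28.1, 28.0, 27.7 and 27.2 CPM in non-LRCs. SW48 LRCs held 36.4, 29.1, 36.5 and 30.4 CPM against 27.6, 26.4, 25.7 and 26.2 CPM. All LRC libraries were above all non-LRC libraries in these 2 lines, the CCS2 lines, as for 19.2% of genes in RKO and 4.82% in SW48, with differences of 0.39 ± 0.08 and 0.32 ± 0.10. These are the 2 lines in which the mitochondrial share also did not overlap. In the other 4 lines the differences ran from 0.02 ± 0.09 in SW948 to 0.17 ± 0.07 in DLD1.

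CASP8, the initiator protease, had opposite signs in different lines and a difference near 0 over all 6 (-0.00 ± 0.04). HT55 LRCs held 49.6, 51.4, 45.6 and 49.1 CPM of CASP8 against 62.1, 52.1, 52.5 and 53.3 CPM in non-LRCs. DLD1 LRCs held 51.96, 43.5, 52.4 and 52.1 CPM against 56.3, 52.6, 61.4 and 60.6 CPM. LRCs were thus below non-LRCs without overlap in these 2 lines (-0.17 ± 0.09 and -0.20 ± 0.07), as for 1.49% of genes in HT55 and 12.1% in DLD1. In HCT15 the CASP8 difference was 0.17 ± 0.08 and in RKO 0.10 ± 0.08, with overlapping ranges.

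RIPK1, the kinase that both scaffolds survival signaling and starts necrosome assembly, showed small differences throughout, from -0.02 ± 0.07 in HCT15 to 0.08 ± 0.08 in RKO. TRADD, the adaptor of TNF receptor 1, was higher in LRCs in 16 of 24 pairs (0.11 ± 0.06), including all 4 pairs of RKO (0.39 ± 0.15), DLD1 (0.34 ± 0.11) and HT55 (0.14 ± 0.09), and lower in all 4 pairs of SW948 (-0.17 ± 0.08). TNFRSF1A, the TNF receptor 1, was higher in 12 pairs and lower in 12 (0.04 ± 0.04), with its most positive difference in RKO (0.22 ± 0.08) and its most negative in SW48 (-0.12 ± 0.07). TNFRSF10A, a receptor of the ligand TRAIL, was higher in all 4 pairs of HCT15 (0.31 ± 0.12) and SW48 (0.14 ± 0.08) and lower in all 4 of DLD1 (-0.14 ± 0.07). None of these 4 members had a line in which the populations did not overlap.

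Line by line, 4 of the 8 members tested in RKO were past the threshold, MLKL, FADD, CFLAR and TNFRSF1A, in a line where 41.5% of all genes were. In the other 5 lines 0 members were, beside 0% of genes in HT55 and SW948, 0.796% in SW48, 14.6% in DLD1 and 0.977% in HCT15. At an unadjusted p under 0.05, edgeR counted 1 member in HT55, 0 in SW948, 1 in SW48, 3 in DLD1 and 1 in HCT15. All genes so counted were 1005 of 13391, 2350 of 13674, 1728 of 13196, 4120 of 13592 and 2415 of 14017, respectively. After adjustment DESeq2 called 1 member in DLD1, where it called 2173 genes. It called 0 members in HT55, SW948, SW48 and HCT15, where it called 37, 244, 361 and 531 genes. Library numbers paired the populations in HT55, SW48, DLD1 and HCT15. With the number as a block, 4 members passed in DLD1 (CASP8 -0.20, CFLAR 0.17, TRADD 0.34 and TNFRSF10A -0.14), CFLAR passed in SW48 (0.31) and TNFRSF10A in HCT15 (0.31), beside 33.8, 9.69 and 21.3% of all genes, respectively. In HT55 0 members passed with the block, beside 0% of all genes. In RKO, where the numbers did not pair the populations, the TNFRSF1A call was lost with the block (0.22, adjusted p = 0.0701) and without the libraries numbered 1 or 2 (adjusted p = 0.159 and 0.186).

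An edgeR test of the line by population interaction asked whether the LRC difference varied among lines. It gave adjusted p-values of 0.0379 for CASP8 and 0.0445 for CFLAR, 2 of 9 members, beside 14.3% of all genes, and from 0.118 to 0.889 for TRADD, TNFRSF10A, TNFRSF1A, FADD, MLKL (0.383), RIPK3 and RIPK1. Both calls were lost whenever 1 replicate number was left out (lowest adjusted p of 0.107 for CASP8 and 0.0858 for CFLAR), in settings that called 522 to 2850 genes in place of 2380. With the replicate block 5 members passed, with MLKL, TRADD and TNFRSF10A added (adjusted p = 0.0458, 0.0239 and 0.00664), beside 33.6% of all genes. The members were chosen on these same contrasts, so these values support nothing further.

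**Figure D2:**
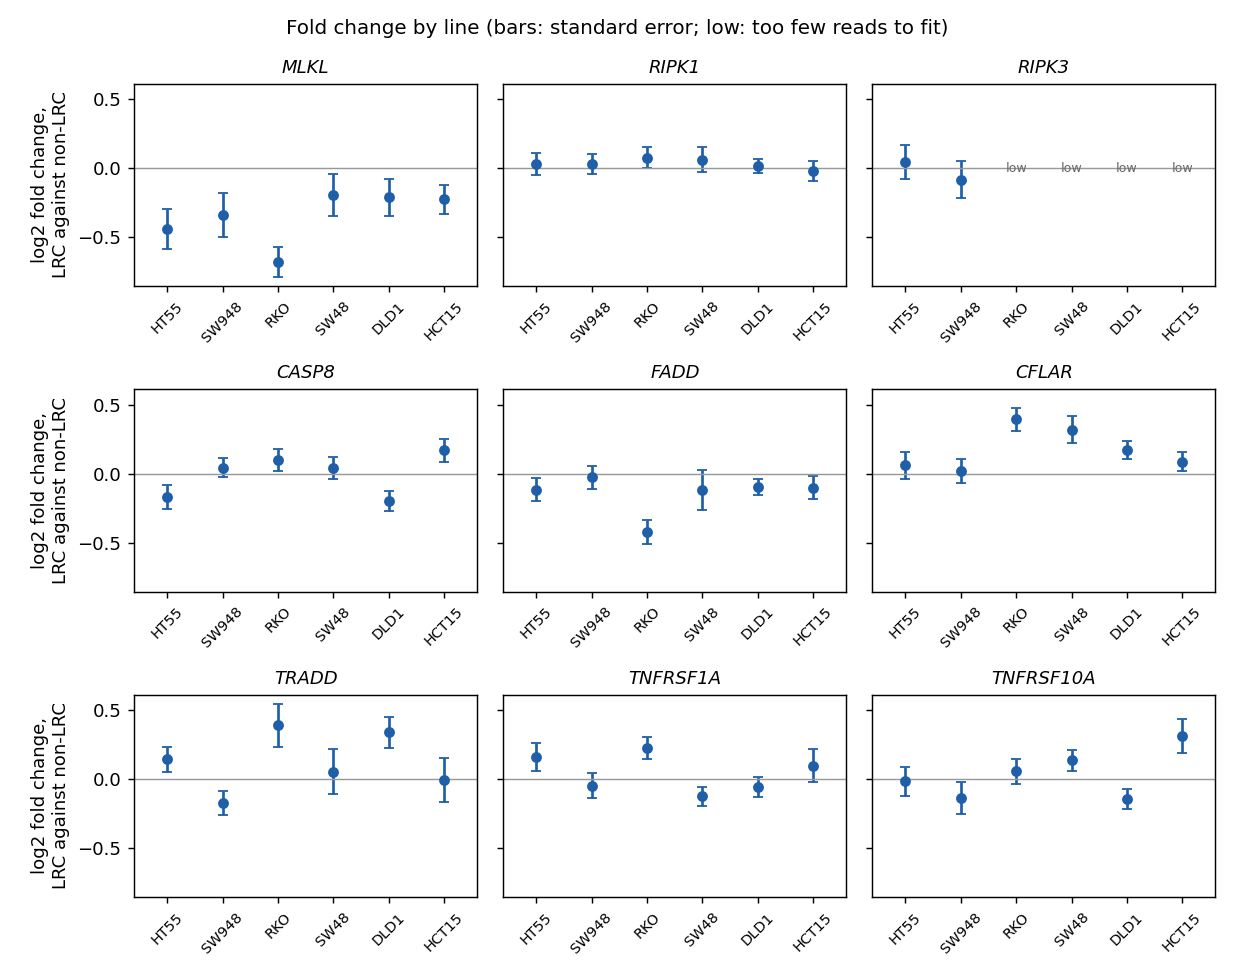
Fold change of LRCs against non-LRCs (log2, y axis) for each member (panel) in each line (x axis), with bars of 1 SE and 4 libraries per population. MLKL and FADD lie below 0 and CFLAR above 0 in all 6 lines, CASP8 takes both signs, and RIPK3 has values in HT55 and SW948 alone. Signs were not firm for CFLAR in SW948 or for FADD in SW948 and SW48, each changing when a replicate number was left out.

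RIPK3, the kinase that phosphorylates MLKL, was read in 2 of the 6 lines. In HT55 its LRC libraries held 11.98, 9.96, 9.92 and 10.8 CPM and its non-LRC libraries 10.98, 9.26, 10.7 and 10.4 CPM. In SW948 they held 9.54, 9.45, 11.7 and 13.6 CPM and 11.5, 12.4, 10.8 and 12.7 CPM. These 16 libraries, from the CCS1 lines, carried 121 to 267 reads each, and the populations overlapped in both lines. Of the 48 libraries of RKO, SW48, DLD1, HCT15 and the controls labeled DLD1, 45 had 0 reads on RIPK3 and 3 had 1 read: DLD1 LRC replicate 1, HCT15 BULK replicate 3 and DLD1 CFSE d5 replicate 1. A count of 0 allowed a level of up to 0.151 to 0.245 CPM (3 reads per library, counting error only). A lower level than that was not detectable at this depth.

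Among non-LRCs, every member differed between lines by edgeR's F test, as did 98.3% of all genes, so a difference between lines was the rule and not particular to the members. Between 2 given lines, 49.4 to 78.3% of all genes passed. MLKL was highest in the CCS2 lines, at 25.5 ± 1.77 CPM in RKO and 24.6 ± 3.16 CPM in SW48 (mean ± SD, n = 4 here and below), which did not differ beyond their spread (adjusted p = 0.693). HT55 followed at 16.9 ± 2.71 CPM, below SW48 (adjusted p = 0.000903), and then DLD1 at 16.3, SW948 at 15.5 and HCT15 at 13.6 CPM, with no 2 neighbors past the threshold (adjusted p from 0.206 to 0.6002). MLKL transcript was thus present in all 6 lines, including the 4 with at most 1 RIPK3 read in any library. The ratio of the highest to the lowest line was 1.87.

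The receptors ordered the lines differently. TNFRSF1A was highest in SW48 (100.5 ± 5.84 CPM), then RKO (87.1 ± 5.39 CPM, adjusted p = 0.0417), both above DLD1 (60.02 ± 4.38 CPM; RKO against DLD1, adjusted p = 8.13e-06), and SW948, HT55 and HCT15 followed at 55.8, 47.9 and 47.1 CPM. TNFRSF10A was highest in RKO (66.2 ± 6.34 CPM), above HCT15 at 54.8 CPM (adjusted p = 0.0170), and HCT15, DLD1, SW948, SW48 and HT55 followed one another down to 45.8 CPM with no neighbors past the threshold. The ratio of highest to lowest line was 2.13 for TNFRSF1A and 1.44 for TNFRSF10A.

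The adaptor TRADD varied most of the 8 members read in every line, by 3.52 times. It was highest in the CCS1 lines SW948 (24.1 ± 0.757 CPM) and HT55 (21.5 ± 1.15 CPM), lower in DLD1 (15.5 ± 1.80 CPM, adjusted p = 0.000775 against HT55) and HCT15 (14.6 ± 2.18 CPM), and lowest in the CCS2 lines SW48 (8.69 ± 1.20 CPM, adjusted p = 1.09e-05 against HCT15) and RKO (6.84 ± 1.16 CPM, adjusted p = 0.0281 against SW48). FADD ran from 44.9 ± 2.19 CPM in SW948 through DLD1, RKO and HCT15 (39.7, 37.2 and 32.6 CPM, neighbors not past the threshold) to HT55 at 26.7 ± 1.46 CPM (adjusted p = 0.0293) and SW48 at 21.9 ± 4.54 CPM (adjusted p = 0.00844).

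CASP8 lay between 55.002 and 59.6 CPM in 5 lines with neighbors not past the threshold, and lower in SW48 at 31.4 ± 1.82 CPM (adjusted p = 7.72e-11 against HT55). CFLAR was highest in HT55 (71.3 ± 6.50 CPM) and SW948 (49.5 ± 4.23 CPM, adjusted p = 5.04e-07), followed by HCT15 (39.1 ± 1.70 CPM, adjusted p = 0.000363), DLD1 (35.5 ± 3.03 CPM), RKO (27.8 ± 0.399 CPM, adjusted p = 0.000199) and SW48 (26.5 ± 0.796 CPM). RIPK1 varied least after TNFRSF10A, by 1.47 times. It was highest in HCT15 and SW948 (69.6 and 69.5 CPM), followed by SW48 (57.97 CPM, adjusted p = 0.00134), RKO, HT55 and DLD1 (52.6, 50.3 and 47.5 CPM). SW48 thus had the highest mean of TNFRSF1A and the lowest of CASP8, FADD and CFLAR, the last not past the threshold against RKO (adjusted p = 0.442).

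**Figure D3:**
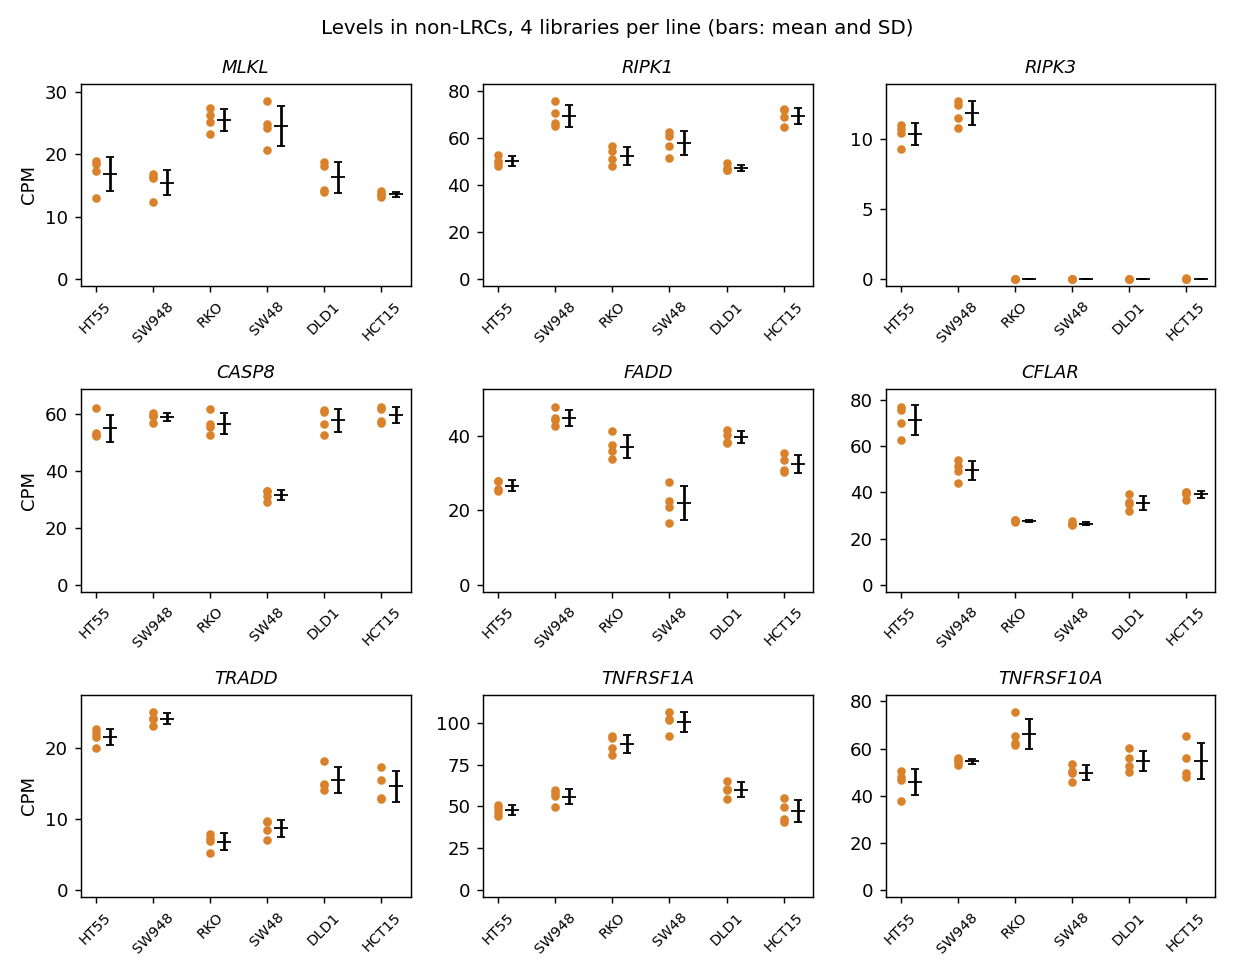
Level of each member (panel; CPM, y axis, each with its own scale) in the 4 non-LRC libraries of each line (x axis), with mean and SD beside the points. RIPK3 is read in HT55 and SW948 only, CASP8 stands low in SW48, and the CCS2 lines RKO and SW48 are lowest for TRADD and highest for TNFRSF1A.

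Per length of merged exons, the scale on which genes can be set beside each other, FADD had the highest mean level over the lines, 19.8 RPKM in non-LRCs (CPM divided by the exon length in kilobases), followed by TNFRSF10A at 18.6, TNFRSF1A at 15.8, CASP8 at 7.35, TRADD at 6.99, RIPK1 at 4.76, MLKL at 3.29 and CFLAR at 1.85. RIPK3 stood at 3.67 in SW948 and 3.20 in HT55. The transcripts that a cell uses can be shorter than the merged exons, most of all for CFLAR.

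Over the 12 means of line and population, the member whose log2 CPM was most like that of MLKL was TNFRSF1A (Pearson r = 0.760), and the least like was TRADD (r = -0.751). CFLAR was closest to TRADD (r = 0.844), RIPK3 to CFLAR (r = 0.840), CASP8 to FADD (r = 0.711), RIPK1 to TNFRSF10A (r = 0.220) and TNFRSF10A to TNFRSF1A (r = 0.415), and TRADD and TNFRSF1A were the most opposed pair (r = -0.837). Among 11489 genes, the 5 most like MLKL were DFFB (0.923), TXNRD2 (0.920), MYBBP1A (0.910), CYREN (0.909) and PUM3 (0.906). The 12 points share lines and libraries, so the correlations are descriptions.

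The controls labeled DLD1 addressed whether time in culture or the dye moved the members apart from dye retention. Without the libraries numbered 1, 2 or 3 in every group, 0 genes of all tested passed between d5 and d1 in unlabeled cells, in place of 3695, 0 with the dye at d5, in place of 745, and 0 in the dye by day interaction, in place of 145. A member's call lost in those settings was lost with that of every other gene. In unlabeled cells, MLKL held 23.8, 23.7, 23.5 and 16.8 CPM at d1 and 11.8, 17.1, 15.8 and 17.2 CPM at d5. The lowest d1 value was that of the library labeled DMSO d1 replicate 4, and the other 3 d1 libraries were above all d5 libraries. MLKL fell by 0.50 ± 0.14 on the log2 scale (adjusted p = 0.0214, edgeR here and below). Without that library it fell by 0.68 (adjusted p = 0.000799). Without the libraries numbered 1, 2 or 3, where no gene passed, the MLKL differences were -0.39, -0.55 and -0.53 (adjusted p from 0.122 to 0.197). In CFSE-labeled cells MLKL held 22.5, 25.9, 24.7 and 26.5 CPM at d1 and 20.4, 21.2, 16.5 and 18.8 CPM at d5. All d5 libraries were below all d1 libraries, as for 16.7% of genes, and MLKL fell by 0.41 ± 0.14 (adjusted p = 0.0294). That call was lost without CFSE d1 replicates 1 and 2 (-0.51, adjusted p = 0.0528), where 2819 genes passed in place of 5706. It was also lost with no filter on low counts (adjusted p = 0.115). Leaving out the libraries numbered 2, 3 or 4 lost it as well (-0.51, -0.37 and -0.38, adjusted p from 0.0567 to 0.153), where 2858 to 5692 genes passed. The mean of MLKL was thus lower at d5 than at d1 with and without the dye.

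CFLAR fell with time as well, where its LRC difference over the lines was positive. Unlabeled cells held 45.9, 41.1, 48.03 and 35.6 CPM of CFLAR at d1 and 22.4, 22.2, 30.3 and 37.7 CPM at d5. CFSE-labeled cells held 59.9, 54.5, 49.1 and 50.5 CPM at d1 and 30.3, 28.9, 32.5 and 28.6 CPM at d5. The d5 libraries were all below the d1 libraries in labeled cells, as for 16.7% of genes. In unlabeled cells, where 6.21% of genes were so placed, the CFLAR ranges overlapped through the libraries numbered 4. The fall was 0.60 ± 0.16 in unlabeled cells (adjusted p = 0.0157, and 0.00142 without DMSO d1 replicate 4) and 0.87 ± 0.16 in labeled cells (adjusted p = 0.000766, and 0.0112 without CFSE d1 replicates 1 and 2). Without the libraries numbered 1, 2 or 3, where no gene passed, the unlabeled differences of CFLAR were -0.50, -0.55 and -0.62 (adjusted p from 0.0969 to 0.173).

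TNFRSF10A fell in labeled cells and was the member that differed most with the dye at d1. CFSE-labeled cells held 132, 142, 85.9 and 84.6 CPM at d1 and 59.6, 55.9, 61.4 and 53.3 CPM at d5. Unlabeled cells held 61.9, 64.1, 65.1 and 48.2 CPM at d1 and 39.5, 39.1, 47.9 and 49.1 CPM at d5. The labeled d1 libraries were above every other control library, with replicates 1 and 2 well above replicates 3 and 4. Of all genes, 10.6% were so placed against DMSO d1 and 16.7% against CFSE d5. In labeled cells TNFRSF10A fell from d1 to d5 by 0.99 ± 0.17 (adjusted p = 0.000493, and 0.00795 without CFSE d1 replicates 1 and 2). In unlabeled cells its difference was -0.45 ± 0.17 (adjusted p = 0.0580), and without DMSO d1 replicate 4 it fell by 0.61 (adjusted p = 0.00664). At d1 TNFRSF10A was higher with CFSE than with DMSO by 0.92 ± 0.17 (adjusted p = 0.00247). Without CFSE d1 replicates 1 and 2, which leaves replicates 3 and 4 in that group, the difference was 0.53 (adjusted p = 0.0777). There the share of all genes called fell from 21.8 to 1.36%, so the lost call was not particular to TNFRSF10A.

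TRADD rose with time in unlabeled cells, from 12.9, 10.97, 11.3 and 13.4 CPM at d1 to 17.9, 14.5, 15.2 and 17.3 CPM at d5. In labeled cells it stood at 11.1, 9.53, 10.1 and 10.7 CPM at d1 and 8.57, 7.66, 9.72 and 10.9 CPM at d5. The unlabeled d5 libraries were above all unlabeled d1 libraries (as for 8.11% of genes) and above all labeled d5 libraries (as for 10.3% of genes). The rise was 0.41 ± 0.14 (adjusted p = 0.0385), and at d5 TRADD was lower with CFSE than with DMSO (-0.82 ± 0.14, adjusted p = 0.0161). The dye difference kept its call without DMSO d1 replicate 4 (-0.81, adjusted p = 0.00176) and without CFSE d1 replicates 1 and 2 (-0.84, adjusted p = 0.0177). Without the libraries numbered 1, 2 or 3, where no gene passed in either contrast, it was -0.76, -0.82 and -0.88 (adjusted p from 0.0955 to 0.320) and the rise 0.36, 0.38 and 0.36 (adjusted p from 0.174 to 0.251). The rise was also lost with library sizes left unscaled (0.28, adjusted p = 0.169), with DESeq2 size factors (0.38, adjusted p = 0.0515), with either other filter on low counts and without CFSE d1 replicates 1 and 2 (0.38, adjusted p = 0.0506).

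RIPK1, CASP8, FADD and TNFRSF1A passed in no control contrast of edgeR's fit of the 16 libraries by group, and RIPK3 was too low to test. Under a block for the number, although numbers did not pair the controls, FADD passed in labeled time (0.29, adjusted p = 0.0226) and TNFRSF1A with the dye at d5 (0.38, adjusted p = 0.0326). RIPK1 nevertheless split the CFSE d1 libraries, at 98.6 and 104 CPM in replicates 1 and 2 and 62.98 and 63.3 CPM in replicates 3 and 4. Without CFSE d1 replicates 1 and 2 and DMSO d1 replicate 4, RIPK1 passed in labeled time (0.38, adjusted p = 0.0216), beside 29.6% of all genes. Without DMSO d1 replicate 4 alone, TNFRSF1A passed with the dye at d5 (0.39, adjusted p = 0.0495), beside 13.3% of all genes. CASP8 was higher in all CFSE d5 libraries than in all DMSO d5 libraries (74.3 to 86.5 CPM against 66.0 to 73.4 CPM), a separation shown by 9.29% of genes, with a difference of 0.20 ± 0.10 (adjusted p = 0.236).

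Counted by contrast, 3 of 8 members were called between d5 and d1 in unlabeled cells, beside 25.5% of all genes, and 5 of 8 without DMSO d1 replicate 4, beside 42.1% of all genes, with TNFRSF10A and TNFRSF1A (-0.37, adjusted p = 0.0394) added. The counts were 3 of 8 beside 39.3% in labeled cells, 1 of 8 beside 21.8% for the dye at d1 and 1 of 8 beside 5.13% for the dye at d5. Whether the dye changed the effect of time was asked by an interaction term, in which edgeR called 0 of 8 members, beside 0.999% of genes. There 2 members had an unadjusted p under 0.05, beside 2474 of 14518 genes. DESeq2 called TRADD (adjusted p = 0.0472), beside 623 genes of all. The contrasts share libraries. Of 10 cycling markers, 3 were lower at d5 in unlabeled cells, beside 13.1% of all genes, and 5 higher in labeled cells, beside 20.2%. With CFSE 9 were higher than with DMSO at d5, beside 3.11% of all genes. Their summed levels were 1332 to 1910 CPM in DMSO d5 and 2740 to 3114 CPM in CFSE d5. Of 10 epithelial markers tested, 5 were higher at d5 in unlabeled cells and 6 in labeled cells, beside 12.4 and 20.2% of all genes. The part of both marker lists in the members' differences was not tested.

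**Figure D4:**
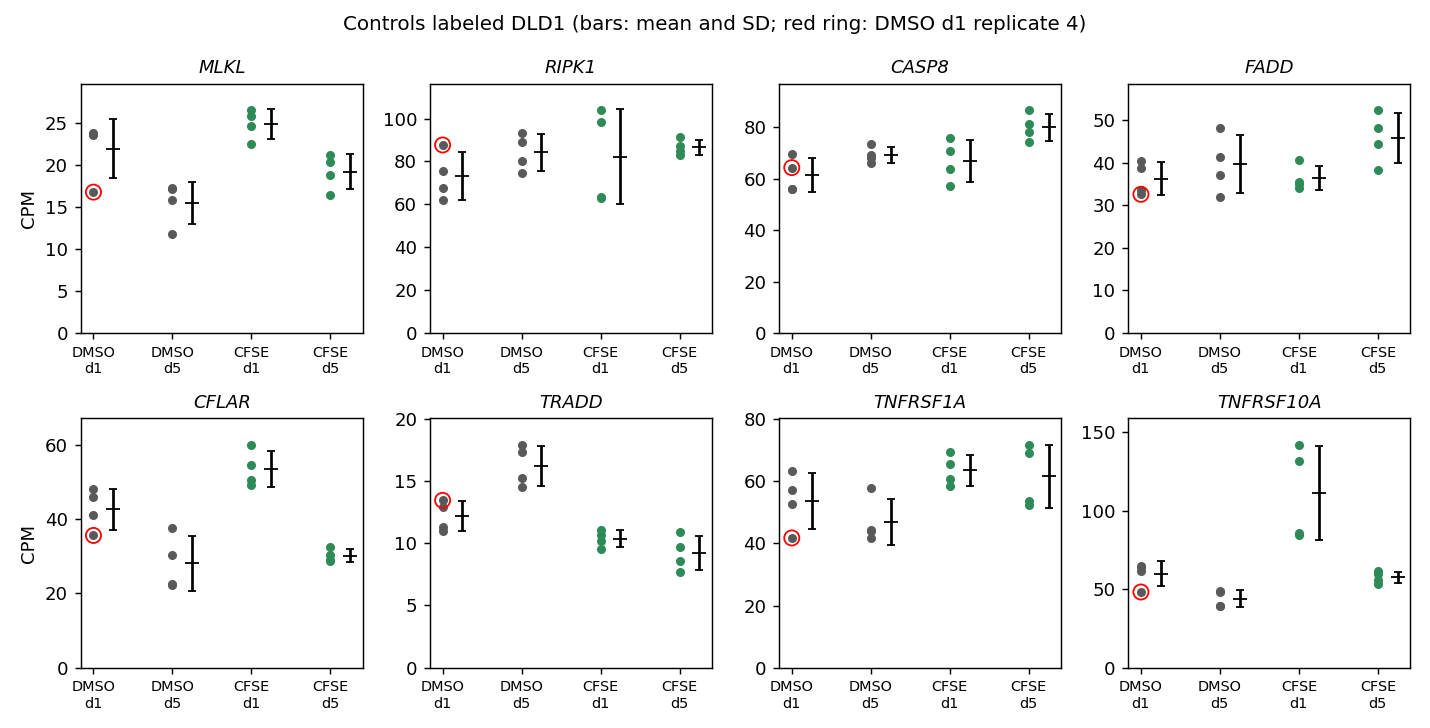
Level of the 8 members read in the controls labeled DLD1 (panels; CPM, y axis) in the 4 libraries of each control group (x axis; gray, DMSO; green, CFSE), with mean and SD. MLKL and CFLAR are lower at d5 than at d1 with and without dye, TNFRSF10A is spread at CFSE d1, and the ringed library, labeled DMSO d1 replicate 4, lies near the d5 levels for MLKL and TNFRSF10A.

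The wider pathway was read from 4 lists, whose genes were compared between LRCs and non-LRCs over the 6 lines in the fit that tested 16603 genes. The lists were chosen with earlier results of these libraries known, and genes were named within them by smallest p, so their p-values are no independent evidence. Over all genes tested, 12.2% were called higher in LRCs and 10.7% lower. Of 22 tested partners of the TNF receptor complex and necrosome, 7 were higher in LRCs and 2 lower (list median 0.05 on the log2 scale, all genes 0.01). The count of 9 fell to 5 without the libraries numbered 3, without those numbered 4 and with no filter on low counts. All genes called there went from 3803 to 2243, 2566 and 3443, respectively. TNFAIP3, which encodes the ubiquitin-editing NF-kB inhibitor A20, rose by 0.69 ± 0.09 (adjusted p = 2.89e-07) and was higher in 23 of 24 pairs. CYLD, the deubiquitinase that removes linear and K63 chains from RIPK1, rose by 0.37 ± 0.05 (adjusted p = 6.96e-07) and was higher in 24 of 24 pairs. BIRC3, the ubiquitin ligase cIAP2, rose by 0.47 ± 0.10 (adjusted p = 0.000322, 21 of 24 pairs). TAB2, a ubiquitin-binding subunit of the TAK1 kinase complex, rose by 0.13 ± 0.03 (adjusted p = 0.000553, 21 of 24 pairs).

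Of 13 tested death ligands and other death or decoy receptors, 8 were higher in LRCs and 0 lower (list median 0.16), beside the same 12.2 and 10.7% of all genes. At an unadjusted p under 0.05 the count lower was 0 as well, where 5722 of 16603 genes passed in either direction. DESeq2 called 8 of the list, beside 3965 genes of all, and 11 of the 13 fold changes were positive. TNFRSF10D, a decoy receptor for TRAIL without a complete death domain, rose by 0.42 ± 0.07 (adjusted p = 1.45e-05) and was higher in 24 of 24 pairs. TNFRSF10C, the other TRAIL decoy, rose by 0.46 ± 0.13 (adjusted p = 0.00936, 20 of 24 pairs), at 2 to 127 reads a library, and lost its call without the libraries numbered 3 (0.38). TNFSF15, the ligand TL1A, rose by 0.33 ± 0.06 (adjusted p = 2.73e-05, 22 of 24 pairs). LTA, which encodes lymphotoxin alpha, passed as well (adjusted p = 2.73e-05) on 98 reads in the 24 LRC libraries together and 10 in the 24 non-LRC libraries, of which SW948 LRCs held 49 and SW48 LRCs 32, and RKO had 0 in either population. Leaving out the libraries numbered 3 took this list's count from 8 to 2, those numbered 1 to 4 and those numbered 4 to 5, where all genes called went from 3803 to 2243, 2423 and 2566.

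Of 12 caspases and apoptosome genes, 2 were higher and 3 lower (list median -0.02). DFFB, the nuclease that cuts DNA in apoptosis and the gene whose levels were most like those of MLKL above, fell by 0.24 ± 0.05 (adjusted p = 0.000179, lower in 21 of 24 pairs), and BID, which links caspase-8 to mitochondria, fell by 0.17 ± 0.04 (adjusted p = 0.00338, 18 of 24 pairs). DIABLO, an antagonist of inhibitor of apoptosis proteins, rose by 0.27 ± 0.06 (adjusted p = 0.000964, 20 of 24 pairs). Of 7 pyroptosis genes tested, 1 was higher and 3 lower (list median 0.04), and the count fell to 2 whenever 1 replicate number was left out. All genes called in those settings were 2243 to 2945, in place of 3803. GSDMD, the pore-forming gasdermin D, fell by 0.24 ± 0.06 (adjusted p = 0.00329, 20 of 24 pairs). CASP4 fell by 0.11 ± 0.04 (adjusted p = 0.0287) and NLRP1 rose by 0.82 ± 0.24 (adjusted p = 0.0113) at 0 to 53 reads a library, and each lost its call in at least 1 setting that left out a replicate number. PYCARD, the inflammasome adaptor, was like RIPK3 read in HT55 and SW948 (209 to 520 reads a library) and at 0 or 1 reads in each library of the other 4 lines, and its call (-0.30 ± 0.11, adjusted p = 0.0476) was lost without any 1 replicate number.

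**Figure D5:**
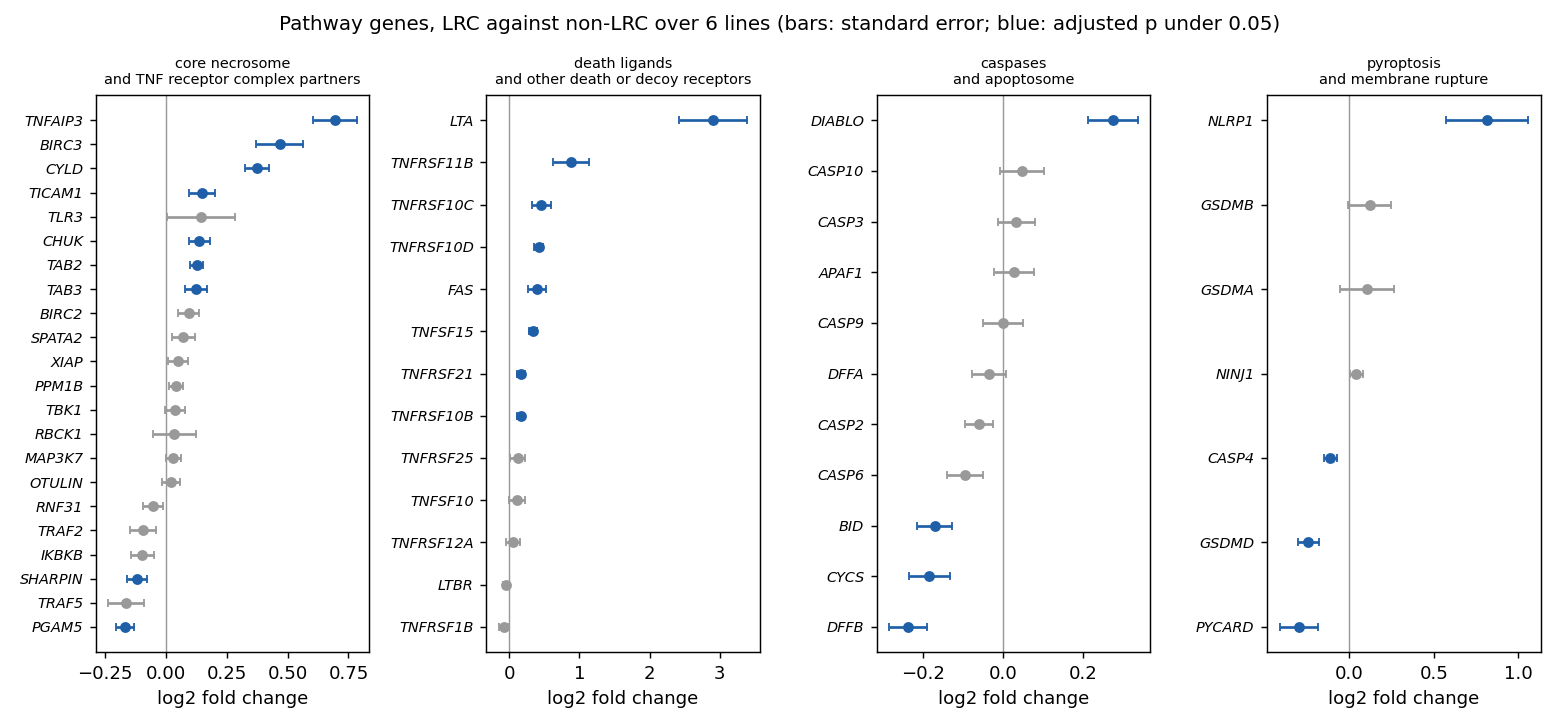
Fold change of LRCs against non-LRCs over the 6 lines (log2, x axis) for the tested genes (y axis) of the 4 pathway lists (panels; a gene not reported here is left out), with bars of 1 SE over 24 libraries per population and blue for an adjusted p under 0.05. The 8 blue genes of the death ligand and receptor list all lie to the right of 0, and the other 3 lists have blue genes on both sides.

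Between d5 and d1 in the unlabeled controls the same lists gave 3 of 22 partners, 3 of 12 ligands and receptors, 0 of 12 caspase genes and 3 of 5 pyroptosis genes past the threshold, beside 25.5% of all genes. For the caspase genes the count was 0 at an unadjusted p under 0.05 as well, beside 5923 of 14518 genes. By DESeq2 it was also 0, beside 4265 genes. IKBKB, a catalytic kinase of the NF-kB pathway, fell by 0.69 ± 0.17 (adjusted p = 0.0115), TRAF5 fell by 0.44 ± 0.14 (adjusted p = 0.0303), and TAB2 rose by 0.44 ± 0.15 (adjusted p = 0.0415). The death receptor TNFRSF25 fell by 1.38 ± 0.37 (adjusted p = 0.0174), TNFRSF10C rose by 0.71 ± 0.23 (adjusted p = 0.0358) and TNFSF10, the ligand TRAIL, rose by 1.52 ± 0.54 (adjusted p = 0.0461, 3 to 39 reads a library). Among gasdermins, GSDMB fell by 1.93 ± 0.40 (adjusted p = 0.00754) and GSDMA by 1.40 ± 0.50 (adjusted p = 0.0478), and CASP4 rose by 0.34 ± 0.12 (adjusted p = 0.0428). Without the libraries numbered 1, 2 or 3 these calls were lost, as were those of all genes in this contrast, while the difference of IKBKB was -0.59 to -0.70 and that of GSDMB -1.65 to -2.02. Without the library labeled DMSO d1 replicate 4 alone, 9 of the partners, 7 of the ligands and receptors and 1 of the caspase genes passed, beside 42.1% of all genes. Without that library and CFSE d1 replicates 1 and 2, these counts were 11, 8 and 2, beside 48.5% of all genes.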

How the data were processed

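RNA was sequenced as single-end 50 bp reads. The submitters' processing notes name hg19, TopHat, HTSeq and DESeq without versions, and the gene annotation was not given in the sources used here. The deposited values were raw read counts per Ensembl gene, made by the authors with 1 file per library. Rows for unassigned reads (5.19 to 14.8% without a feature and 1.52 to 2.21% ambiguous) were left out. Symbols were taken from reference tables for 47098 of 54127 genes. Counts were tested with edgeR 4.0.16 (quasi-likelihood, TMM) in R 4.3.3, over genes that reached 10 counts in 4 or more samples of a fit, with Benjamini-Hochberg adjustment over all genes tested and a threshold of 0.05. CPM used TMM-scaled library sizes, and log2 CPM, used for correlations, a prior count of 2. The pooled fit had terms for line and population, single lines were fitted alone, and the 16 controls were fitted together. Steps were tested on simulated data.

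Replicate numbers paired the populations in 4 lines, where every same-number correlation of deviations exceeded 0.1 (means of 0.348 in HT55, 0.375 in SW48, 0.352 in DLD1 and 0.478 in HCT15). They did not in SW948, RKO or the controls. The members and lists were chosen with earlier results of these data known. The genes named were the 9 members, the genes past the threshold in each list by smallest p (up to 4 over the lines, up to 3 in the unlabeled day contrast), the 5 genes most correlated with MLKL, and each member's closest fellow member. The 2 promoters printed were chosen after values were seen. DESeq2 1.42.0 was an alternative. Control libraries were set against the sorted lines on log2(CPM + 1), a check added after the values were seen. A gene of the pathway lists is not reported here.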

Additional observations from a re-analysis of the deposited data

Results flagged for a closer look

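Among 135 groups of 4 libraries screened with Dixon's test, 13 held a library far from the other 3. Chance gives about 5%, which does not apply to 3 of the 13, RIPK3 groups in which a single read beside counts of 0 is far from the others by construction. For MLKL these were SW948 BULK replicate 1, the lowest at 12.4 CPM (nearest 16.2), RKO LRC replicate 1, the lowest at 12.6 CPM (nearest 16.8), DLD1 LRC replicate 3, the highest at 17.1 CPM (nearest 13.2), and DLD1 DMSO d1 replicate 4, the lowest at 16.8 CPM (nearest 23.5). The last is the library that resembled the d5 group. For RIPK3 they were the 3 libraries with a single read where the others had 0, at 0.0714 CPM in DLD1 LRC replicate 1, 0.0594 CPM in HCT15 BULK replicate 3 and 0.0720 CPM in DLD1 CFSE d5 replicate 1. CASP8 was highest in HT55 BULK replicate 1 at 62.1 CPM (nearest 53.3) and lowest in DLD1 LRC replicate 2 at 43.5 CPM (nearest 51.96). FADD was highest in HCT15 LRC replicate 2 at 33.2 CPM (nearest 29.5). TNFRSF1A was lowest in HT55 LRC replicate 2 at 43.8 CPM (nearest 55.6), highest in SW948 LRC replicate 1 at 62.8 CPM (nearest 51.6) and highest in DLD1 DMSO d5 replicate 2 at 57.9 CPM (nearest 44.3).

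The LRC difference varied among lines in edgeR's interaction test for CASP8 (adjusted p = 0.0379) and CFLAR (adjusted p = 0.0445), on contrasts by which the members had been chosen.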

How the results depend on the processing

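For single members, 592 of 639 alternative values of the LRC differences kept their direction and side of the threshold, while 28 changed sign without a call, 14 gained a call and 5 lost one, all of TNFRSF1A in RKO. The levels between lines kept their side in 89 of 89, as did 75 of 89 for the line by population interaction and 452 of 520 in the controls, where 24 lost a call, 18 gained one and 26 changed sign without passing the threshold. The cause was not tested. Leaving out libraries because they stood apart was chosen after seeing the data.

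Counts of members past the threshold moved as follows. With the replicate block the counts were 1 in SW48, 4 in DLD1, 1 in HCT15, 2 for the dye at d5 and 5 for the line interaction. The shares of all genes called there were 9.69, 33.8, 21.3, 10.4 and 33.6%, respectively. The block changed no other count of members by over 1.5 times. A single fit of all 48 sorted libraries gave 1 in SW48, beside 486 genes. DESeq2 gave 1 in DLD1, beside 2173 genes, and 1 for the dye by day interaction, beside 623. The line interaction gave 1 without TMM, beside 2438 genes, and 0 with no filter, beside 2646. Leaving out 1 replicate number gave 0 to 1 in HT55 (all genes 0 to 808) and 3 to 4 in RKO (all genes 3387 to 4721). It gave 0 to 4 for unlabeled time (all genes 0 without number 1, 2 or 3 and 6378 without number 4). Labeled time gave 2 to 3 (all genes 2858 to 5692). The dye at d5 gave 0 to 1 (all genes 0 without number 1, 2 or 3 and 1604 without number 4). The line interaction gave 0 to 0 (all genes 522 to 2850). Without the library labeled DMSO d1 replicate 4 the counts were 5 for unlabeled time, beside 42.1% of all genes, and 2 for the dye at d5, beside 13.3%. Without CFSE d1 replicates 1 and 2 the dye at d1 gave 0, beside 1.36% of all genes. Without all 3 libraries unlabeled time gave 5, the dye at d1 0 and the dye at d5 3, beside 48.5, 2.37 and 19.6% of all genes. In the main fit these shares were 25.5, 21.8 and 5.13%.

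Signs changed for RIPK1 in labeled time (-0.000128 with DESeq2, -0.069 without TMM, -0.000136 with DESeq2 size factors, -0.062 with 10 counts in every sample, -0.11 to 0.093 leaving out 1 replicate number), with the dye at d1 (-0.19 without CFSE d1 replicates 1 and 2, -0.11 without all 3 libraries) and at d5 (-0.0064 with 10 counts in every sample, -0.036 to 0.10 leaving out 1 replicate number), and in the dye by day interaction (0.20 and 0.15 without the same 2 sets). FADD changed sign in unlabeled time without TMM (-0.013) and with the dye at d1 (-0.011 with no filter, -0.048 without CFSE d1 replicates 1 and 2, -0.11 without all 3 libraries, -0.057, the value without DMSO d1 replicate 4, to 0.078 leaving out libraries). RIPK1 in labeled time stood at 0.38 without all 3 libraries, past the threshold (edgeR, adjusted p = 0.0216). CFLAR ran from -0.029 to 0.28 with the dye at d5 leaving out 1 replicate number. In the dye by day interaction CASP8 gave -0.093 and -0.062 without the 2 sets and -0.034 to 0.099 leaving out libraries, MLKL -0.16 to 0.29 and TNFRSF1A -0.048 to 0.26. Without TMM the median of all genes in both day contrasts moved to -0.09 from 0.04 and 0.02. Genes called in unlabeled time went from 3695 to 6077 without DMSO d1 replicate 4.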
